A study of Mus musculus with 31 samples.

Results

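The 8 genes described here are 7 known targets of glucocorticoid hormones (Tsc22d3, Fkbp5, Per1, Klf9, Ddit4, Txnip and Zbtb16) and Nr3c1, which encodes the glucocorticoid receptor. They were chosen by symbol, with their levels in these libraries and their differences between β-glucan and PBS mice and between cell types already known, and they are 8 of 45706 gene identifiers counted. The libraries are RNA-seq of cells sorted from the bone marrow of C57BL/6 mice, 10 weeks old, given an intraperitoneal injection of PBS alone or of 1 mg of the fungal polysaccharide β-glucan, and carrying no other allele or agent named in the labels. Long-term hematopoietic stem cells (HSC) were taken at day 7 (4 PBS and 3 β-glucan libraries) and at day 28 (4 and 4), and multipotent progenitors (MPP), the more differentiated cells that HSC give rise to, at day 28 (4 and 4). A further 4 and 4 HSC libraries came from mice that, 7 days after PBS or β-glucan, were all given 150 mg/kg of 5-fluorouracil (5-FU), a drug that kills dividing cells, and were sampled 14 days after it. The labels do not say whether libraries of a group came from separate mice or from pooled mice, so a p-value here measures only the spread between these libraries.

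Glucocorticoids enter cells and bind the receptor, which waits in the cytoplasm in a complex with the chaperone Hsp90 and its partners. The bound receptor moves to the nucleus, where it binds glucocorticoid response elements, short palindromic sequences near the genes it activates, and it also damps inflammatory genes. Blood hormone follows the time of day and rises with stress, and in bone marrow glucocorticoids are known for killing immature lymphoid cells and for supporting erythroid progenitors under stress.

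The roles of the 8 genes differ. Nr3c1 is the receptor, and Fkbp5 is a co-chaperone of the Hsp90 complex that lowers the receptor's affinity for hormone and so closes a feedback loop. Tsc22d3 encodes GILZ, a leucine zipper protein that restrains NF-κB and AP-1. Per1 is a repressor of the circadian clock, Klf9 a zinc finger factor, and Zbtb16 encodes PLZF, a zinc finger repressor of stem cells and innate-like lymphocytes. Ddit4 encodes REDD1, an inhibitor of the growth kinase mTORC1. Txnip encodes an arrestin-like protein that binds thioredoxin and limits glucose uptake, and it is also driven by glucose through Mondo factors and by FOXO factors.

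In the coordinates of the count tables (mm10), Tsc22d3 (ENSMUSG00000031431) spans chrX:140539528-140600659, Fkbp5 (ENSMUSG00000024222) chr17:28399095-28517524, Ddit4 (ENSMUSG00000020108) chr10:59949675-59951770 and Zbtb16 (ENSMUSG00000066687) chr9:48654311-48835945, all on the minus strand. On the plus strand, Per1 (ENSMUSG00000020893) spans chr11:69095217-69109960, Klf9 (ENSMUSG00000033863) chr19:23141226-23166911 and Txnip (ENSMUSG00000038393) chr3:96557957-96561883. Nr3c1 (ENSMUSG00000024431) lies on the minus strand. Of the 8 genes, Txnip alone shares exon bases with another gene: 606 bases, 19.4% of its exons, overlap Gm15441 on the other strand, and the library kit does not mark strand, so reads in that stretch cannot be told apart.

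RefSeq promoter entries (GRCm38.p6, the same assembly as mm10) were found for 6 of the 8 genes, with 9 transcription starts in all. The promoters of Tsc22d3, Per1, Klf9 and Ddit4 are shown because the libraries of β-glucan and PBS mice did not overlap for these 4 genes after 5-FU, and that of Txnip because it is the gene with the largest β-glucan difference in HSC at day 28. Each line gives the 250 bases before a start, 5′ to 3′ on the gene's strand, and capitals mark matches, on either strand, to AGAACA (a receptor half-site), AGAACA and TGTTCT with 3 bases between them (a full response element), GNACA and TGTNC with 3 bases between them (the loose core of such an element), CACGTG (an E-box, read by clock and Mondo factors), TGACGTCA (a CREB site) or TGTTTAC (a FOXO site).
Tsc22d3, chrX:140542669-140542918, minus strand: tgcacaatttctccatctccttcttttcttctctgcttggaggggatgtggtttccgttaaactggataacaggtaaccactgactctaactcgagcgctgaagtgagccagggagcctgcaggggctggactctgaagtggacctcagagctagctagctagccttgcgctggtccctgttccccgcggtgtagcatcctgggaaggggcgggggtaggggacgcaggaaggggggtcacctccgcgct
Tsc22d3, upstream start, chrX:140600523-140600772, minus strand: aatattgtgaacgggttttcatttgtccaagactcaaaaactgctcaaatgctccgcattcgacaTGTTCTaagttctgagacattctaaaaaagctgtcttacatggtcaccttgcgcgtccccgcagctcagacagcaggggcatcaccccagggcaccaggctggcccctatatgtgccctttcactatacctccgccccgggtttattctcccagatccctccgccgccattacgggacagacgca
Per1, chr11:69098699-69098948, plus strand: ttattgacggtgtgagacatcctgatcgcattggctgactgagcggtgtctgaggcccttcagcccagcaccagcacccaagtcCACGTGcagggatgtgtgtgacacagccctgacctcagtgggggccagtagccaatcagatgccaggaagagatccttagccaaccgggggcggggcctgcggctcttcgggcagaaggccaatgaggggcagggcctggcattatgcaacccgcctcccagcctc
Klf9, chr19:23140976-23141225, plus strand: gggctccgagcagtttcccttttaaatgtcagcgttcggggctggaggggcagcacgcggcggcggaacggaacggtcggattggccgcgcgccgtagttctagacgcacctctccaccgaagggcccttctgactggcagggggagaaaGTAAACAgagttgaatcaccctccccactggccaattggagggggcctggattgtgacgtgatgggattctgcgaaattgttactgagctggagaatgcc
Ddit4, chr10:59951771-59952020, minus strand: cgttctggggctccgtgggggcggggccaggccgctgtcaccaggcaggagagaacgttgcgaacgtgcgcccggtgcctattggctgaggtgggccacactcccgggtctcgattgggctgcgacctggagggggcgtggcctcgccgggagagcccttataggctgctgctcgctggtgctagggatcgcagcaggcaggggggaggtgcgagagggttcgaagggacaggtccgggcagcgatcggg
Txnip, chr3:96557707-96557956, plus strand: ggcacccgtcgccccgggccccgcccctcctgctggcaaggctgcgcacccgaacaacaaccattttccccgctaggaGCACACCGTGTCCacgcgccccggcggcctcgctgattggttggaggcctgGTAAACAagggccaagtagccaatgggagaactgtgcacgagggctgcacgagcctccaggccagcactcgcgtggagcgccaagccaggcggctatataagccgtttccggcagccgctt

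The Txnip promoter held the loose element core 172 to 160 bases before the start, which 0.39% of 32536 RefSeq promoter windows of the same length held, and a FOXO match 121 to 115 bases before it (3.17% of windows). Klf9 held a FOXO match 100 to 94 bases before its start. The upstream start of Tsc22d3 had a receptor half-site 185 to 180 bases before it, as did 16.0% of windows. Per1 held an E-box 166 to 161 bases before the start shown, and Fkbp5 held one 169 to 164 bases before its own, against 6.04% of windows. None of the 9 windows held the full element (0.00922% of all windows) or the CREB site (1.56%). A match is only a run of letters, and receptor binding near these genes can lie far outside such windows.

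The libraries held 19331663 to 39485556 counts each (median 29751430), and the 8 genes together took 0.0385 to 0.105% of them. Levels are counts divided by scaled library totals (CPM). The columns of the count tables name neither the day nor 5-FU, so the table of 7 libraries was taken as day 7, that with MPP as day 28 and the remaining one as 5-FU. Levels in different tables are set side by side without a test, since the table and the day cannot be told apart. Against the labels, Slamf1, a surface marker of long-term HSC, stood at 3.69 to 8.02 CPM in HSC and at 0.908 to 1.31 CPM in MPP of day 28 PBS mice. Cd48, which marks MPP, stood at 97.3 to 112 CPM in HSC and at 166 to 183 CPM in MPP. The 11 LT-HSC markers together overlapped in PBS mice at day 28, at 0.0339 to 0.0546% of counts in HSC and 0.0369 to 0.0463% in MPP. Markers of mature cells were present in every group, with 10 erythroid markers holding 1.87 to 18.7% of counts over the groups and 10 neutrophil markers 5.02 to 19.2%, and no marker of any list was at 0 in all libraries of a group. In such bulk libraries, fewer cells of a type and less RNA per cell cannot be told apart.

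Compared per length of exon, as CPM divided by exon length in kilobases (FPKM), Txnip and Tsc22d3 led in all 8 groups and Nr3c1 came next. In HSC of PBS mice at day 7 the mean level was 152 FPKM for Txnip, 86.1 for Tsc22d3, 6.41 for Nr3c1, 2.63 for Klf9, 1.99 for Fkbp5, 1.08 for Per1, 0.959 for Ddit4 and 0.421 for Zbtb16. Txnip was the first of the 8 in 7 groups, and in HSC of β-glucan mice at day 28 it stood level with Tsc22d3, at 45.1 against 45.3 FPKM. Klf9 and Fkbp5 changed places between groups, as did Per1, Ddit4 and Zbtb16 at the low end. The low genes rest on few counts, down to 7 counts of Zbtb16 in a PBS library after 5-FU, while Tsc22d3 had 4136 to 10214 counts in every library.

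**Figure D1:**
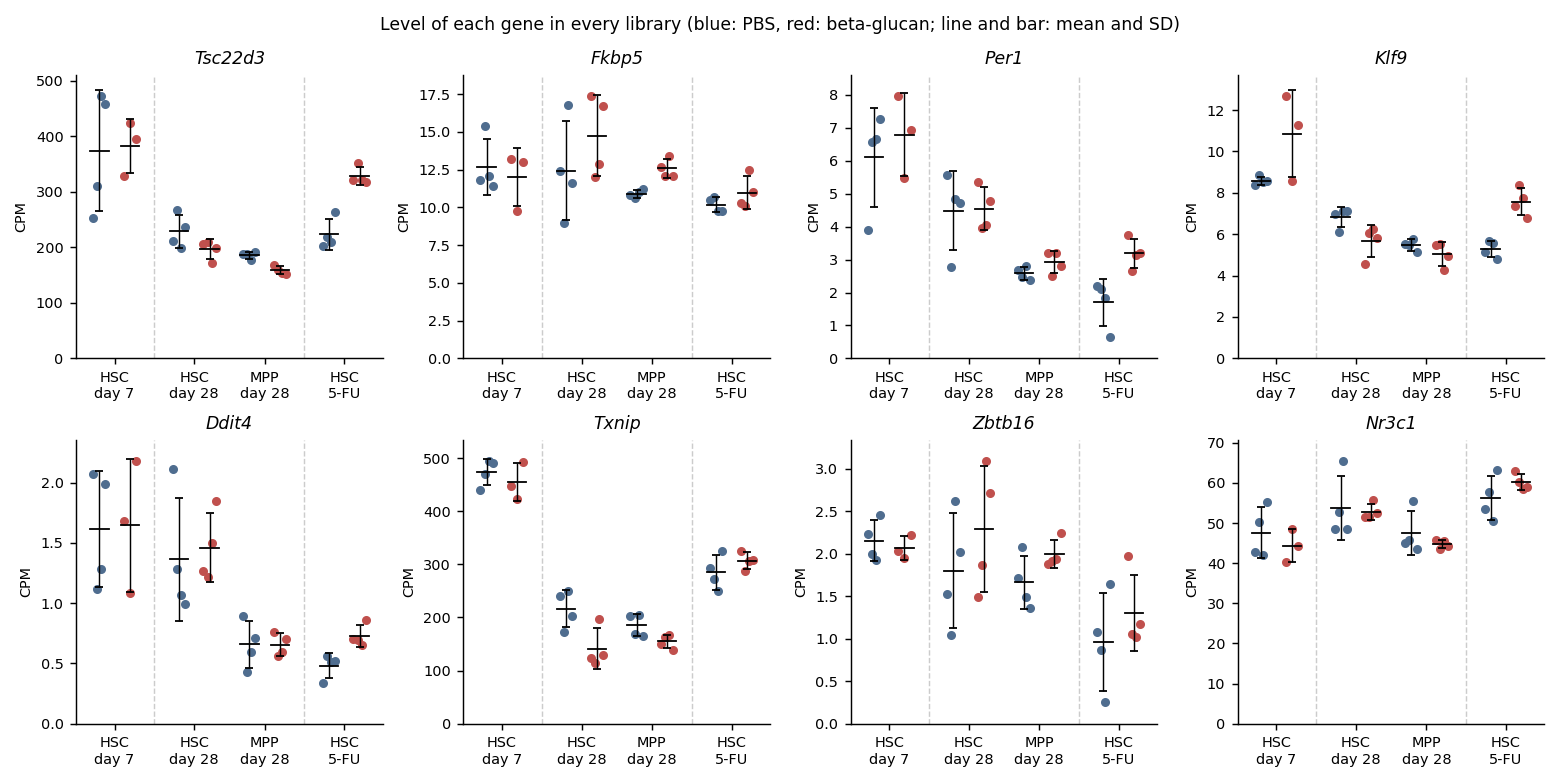
Level in CPM of each of the 8 genes in every library (vertical axis, from 0), by cell type and time (horizontal axis), with PBS mice in blue and β-glucan mice in red, and a line and bar for mean and SD. After 5-FU the β-glucan libraries of Tsc22d3 sit between 318 and 352 CPM, above PBS libraries of 202 to 263 CPM, while at day 7 the 2 groups overlap.

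In the 4 comparisons of β-glucan with PBS mice and the 2 of MPP with HSC, the differences of the 8 genes are descriptions, because the genes were picked with these contrasts in view. "Called" means an adjusted p under 0.05 in edgeR's quasi-likelihood test, with the Benjamini-Hochberg procedure run over every gene tested. Differences are given in parentheses on the log2 scale with their standard error. All 8 genes passed the filter on low counts in every comparison.

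The receptor gene stood within a narrow range. At day 7, Nr3c1 was at 42.9, 50.2, 42.0 and 55.3 CPM in PBS HSC and at 40.2, 48.5 and 44.3 CPM in β-glucan mice (-0.10 ± 0.12). At day 28, HSC had it at 48.6, 52.7, 65.5 and 48.4 CPM in PBS mice and at 51.4, 51.5, 55.8 and 52.5 CPM in β-glucan mice (-0.04 ± 0.10). After 5-FU it was at 53.6, 57.7, 50.6 and 63.2 CPM in PBS mice and at 62.9, 60.2, 58.6 and 58.9 CPM in β-glucan mice (0.10 ± 0.07). The PBS and β-glucan libraries overlapped in all 3 sets of HSC, and PBS libraries spread more widely than β-glucan libraries in each. In MPP, Nr3c1 was at 45.0, 45.8, 55.5 and 43.6 CPM in PBS mice and at 45.8, 43.5, 45.6 and 44.3 CPM in β-glucan mice (-0.09 ± 0.07), again overlapping. All 4 MPP libraries of β-glucan mice lay below the 4 HSC libraries of the same treatment (-0.23 ± 0.06), whereas in PBS mice the cell types overlapped (-0.19 ± 0.11).

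Fkbp5, the feedback co-chaperone, differed little between treatments. Its level was 11.8, 15.4, 12.1 and 11.4 CPM in PBS and 13.2, 9.78 and 13 CPM in β-glucan HSC at day 7 (-0.08 ± 0.17). At day 28 it was 12.4, 8.93, 16.8 and 11.6 CPM in PBS and 17.4, 12, 12.9 and 16.7 CPM in β-glucan HSC (0.24 ± 0.19). After 5-FU, when other targets stood apart, the level was 10.5, 10.7, 9.78 and 9.75 CPM in PBS and 10.3, 10.1, 12.5 and 11.0 CPM in β-glucan mice (0.11 ± 0.11). Those groups all overlapped. In MPP the PBS libraries were at 10.8, 10.6, 11.0 and 11.2 CPM and the β-glucan libraries at 12.7, 12.1, 13.4 and 12.1 CPM, so that the groups did not overlap, by a small step (0.20 ± 0.07).

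Tsc22d3, one of the most direct targets of the receptor, had the clearest separation of the 8 genes after 5-FU. It was at 202, 218, 209 and 263 CPM in PBS mice and at 321, 352, 321 and 318 CPM in β-glucan mice. Every β-glucan library stood above every PBS library, by 0.56 ± 0.08 on the log2 scale. In HSC at day 28 the order was the other way, at 212, 267, 199 and 237 CPM in PBS mice and 206, 210, 171 and 199 CPM in β-glucan mice, with overlap (-0.23 ± 0.10). In MPP the PBS libraries were at 187, 187, 177 and 192 CPM and the β-glucan libraries at 168, 159, 154 and 152 CPM, all below the PBS libraries (-0.24 ± 0.05). At day 7 the PBS libraries spread from 252 and 311 to 458 and 473 CPM and enclosed the β-glucan libraries at 328, 423 and 395 CPM (0.03 ± 0.19). Of the 8 groups, the PBS group at day 7 thus had the widest spread of Tsc22d3, with an SD of 29.2% of the mean.

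Per1, the clock repressor, and Klf9 had the same direction as Tsc22d3 after 5-FU, at much lower levels. Per1 was at 2.2, 2.12, 1.83 and 0.647 CPM in PBS mice and at 3.75, 2.66, 3.15 and 3.21 CPM in β-glucan mice (0.90 ± 0.30). The groups did not overlap, and the lowest PBS library, replicate 4, held 15 counts of Per1. Without that library the difference was 0.64 ± 0.20. Klf9 was at 5.14, 5.66, 5.57 and 4.79 CPM in PBS mice and at 7.38, 8.37, 7.77 and 6.79 CPM in β-glucan mice (0.52 ± 0.13), and these groups did not overlap either.

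Before 5-FU the same 2 genes gave no common picture. At day 7, Klf9 was at 8.37, 8.86, 8.53 and 8.56 CPM in PBS HSC and at 12.7, 8.58 and 11.3 CPM in β-glucan HSC, with 1 β-glucan library inside the PBS range (0.34 ± 0.17). At day 28, it was at 7.0, 6.13, 7.11 and 7.1 CPM in PBS HSC and at 4.56, 6.07, 6.24 and 5.8 CPM in β-glucan HSC (-0.28 ± 0.13). Only the PBS library at 6.13 CPM reached into the β-glucan range there. Per1 at day 28 was at 5.58, 2.77, 4.83 and 4.73 CPM in PBS HSC and at 5.35, 3.97, 4.06 and 4.78 CPM in β-glucan HSC (0.01 ± 0.21). At day 7 the Per1 libraries also overlapped (0.16 ± 0.23), and so did those of both genes in MPP (Per1 0.17 ± 0.14, Klf9 -0.12 ± 0.11).

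Zbtb16 was the gene of the lowest FPKM in 7 of the 8 groups and varied most after 5-FU, with an SD of 59.6% of the mean in PBS mice, though of only 6.83% in β-glucan mice at day 7. After 5-FU it was at 1.08, 0.861, 0.256 and 1.64 CPM in PBS mice and at 1.97, 1.06, 1.02 and 1.17 CPM in β-glucan mice (0.47 ± 0.43). The groups overlapped, and without the PBS library at 0.256 CPM the difference was 0.15 ± 0.33. The differences in HSC at day 28 (0.34 ± 0.30), in MPP (0.25 ± 0.17) and at day 7 (-0.06 ± 0.23) likewise came with overlapping libraries.

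Ddit4, the mTORC1 inhibitor, was low throughout, at 9 to 82 counts per library. After 5-FU it was at 0.335, 0.563, 0.513 and 0.518 CPM in PBS mice and at 0.7, 0.691, 0.654 and 0.862 CPM in β-glucan mice, with no overlap (0.59 ± 0.29). At day 28, HSC had it at 2.11, 1.28, 1.07 and 0.994 CPM in PBS and at 1.27, 1.22, 1.5 and 1.85 CPM in β-glucan mice (0.07 ± 0.26). That comparison overlapped, as did those at day 7 (0.02 ± 0.34) and in MPP (-0.02 ± 0.26).

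Txnip had its largest β-glucan difference at a time when most of the others showed little. In HSC at day 28 it was at 240, 173, 249 and 203 CPM in PBS mice and at 123, 114, 198 and 129 CPM in β-glucan mice (-0.63 ± 0.17). 3 of the 4 β-glucan libraries lay below all PBS libraries, and replicate 3, at 198 CPM, lay among them. Without replicate 3 the difference was -0.84 ± 0.13. In MPP, Txnip was at 202, 169, 205 and 166 CPM in PBS mice and at 151, 163, 167 and 139 CPM in β-glucan mice (-0.27 ± 0.08), with a slight overlap. At day 7 it was at 441, 470, 495 and 491 CPM in PBS mice and at 448, 423 and 493 CPM in β-glucan mice (-0.06 ± 0.08), and after 5-FU at 294, 272, 249 and 326 CPM and at 326, 288, 306 and 308 CPM (0.11 ± 0.08). Both of these comparisons overlapped. The antisense gene Gm15441, whose reads can be taken for Txnip, stood at 0.709 to 1.15 CPM in β-glucan and 0.758 to 1.16 CPM in PBS HSC at day 28, far below Txnip. In the same libraries the erythroid markers held 15.4 to 17.3% of counts in β-glucan and 17.8 to 18.7% in PBS mice, the neutrophil markers 5.94 to 6.73% and 6.77 to 7.47%, and the T, NK and innate lymphoid markers 0.00849 to 0.00912% and 0.0101 to 0.0108%, with no overlap in these 3 lists. The mast cell, basophil and eosinophil markers overlapped, at 0.478 to 0.627% and 0.389 to 0.486%, and 0 markers of these 4 lists were called by edgeR's quasi-likelihood test. In MPP, 6 of 10 neutrophil markers fell with β-glucan, from 6.01 to 7.17% to 5.02 to 5.96%, in the libraries where Tsc22d3 was lower. There, 8 of 10 B cell markers also fell (median -0.49, summed shares overlapping at 0.337 to 0.42% and 0.299 to 0.397%), as did 5 of 10 T, NK and innate lymphoid markers (0.0102 to 0.0108% to 0.00808 to 0.00903%), and 3 of 7 stress genes tested rose (0.00378 to 0.00414% to 0.00471 to 0.00708%). Other lists rose in summed share without overlap, with 0 markers called lower. Called higher were 2 of 8 mast cell, basophil and eosinophil markers (0.267 to 0.327% to 0.343 to 0.381%) and 3 of 6 megakaryocyte markers (0.00658 to 0.00732% to 0.00855 to 0.0133%). So were 2 of 8 stromal and endothelial markers (0.011 to 0.0131% to 0.0135 to 0.0159%) and 2 of 8 dendritic cell markers (0.0353 to 0.0363% to 0.0378 to 0.0484%). Their part in the levels of Txnip and Tsc22d3 was not tested.

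**Figure D2:**
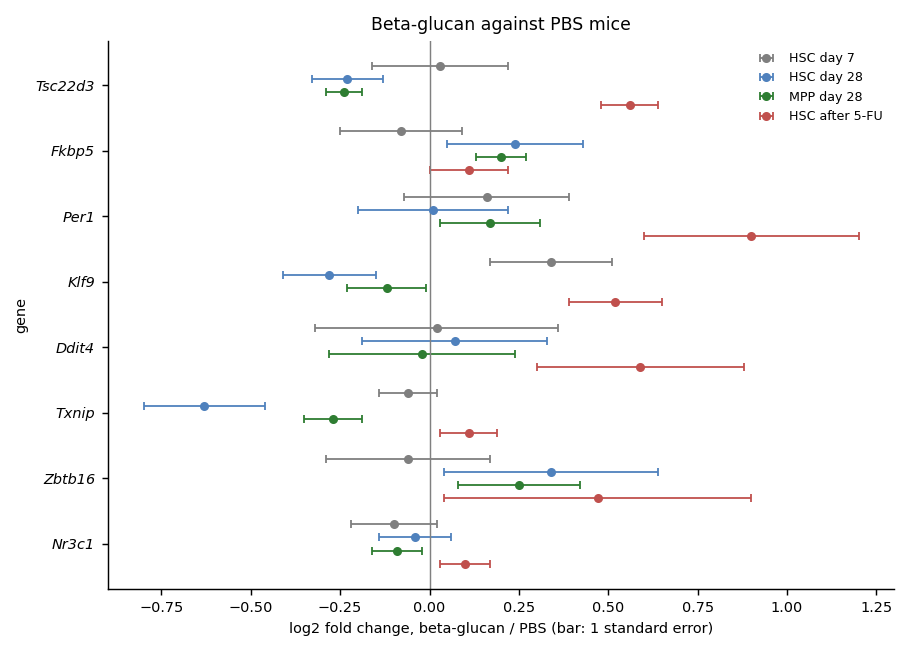
Log2 fold change of β-glucan against PBS mice (horizontal axis, bars of 1 standard error) for each of the 8 genes (vertical axis) in HSC at day 7, HSC at day 28, MPP at day 28 and HSC after 5-FU. After 5-FU all 8 values lie at or above 0.10, and in HSC at day 28 the lowest is Txnip at -0.63.

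Counted over the set, the 4 comparisons differed. After 5-FU all 8 genes were higher in β-glucan mice, from 0.10 to 0.90, with a median of 0.49 against 0.00 over 15705 genes tested. For 4 of them (Tsc22d3, Per1, Klf9 and Ddit4) the groups did not overlap, as for 4.61% of all genes tested, and 1 (Tsc22d3) was called, among 7 genes or 0.0446% of those tested (0.0382% higher and 0.00637% lower). In HSC at day 28, 4 genes were higher and 4 lower (median -0.02 against -0.02 over all genes), with 0 of 8 separated (9.11% of all genes) and 0 called (0.0374% of all genes, 6 of 16025, with 2729 at an unadjusted p under 0.05), while DESeq2 called 1, Txnip. At day 7, again 4 were higher and 4 lower (median -0.02 against -0.01), with 0 separated (18.9%) and 0 called by edgeR (6.72%, with 2.83% higher and 3.88% lower, and 3287 genes at an unadjusted p under 0.05) or by DESeq2. In MPP, 3 were higher and 5 lower (median -0.05 against 0.00), 2 were separated (12.4%) and 1, Tsc22d3, was called (4.63% of all genes, 2.72% higher and 1.91% lower). The genes were chosen with these contrasts known, so nothing further is read from these counts.

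Of the 8 genes, the call of Tsc22d3 after 5-FU rested on the whole set of libraries. It was lost when any of PBS replicates 1 and 2 or β-glucan replicates 1 to 4 was left out, while the fold change stayed between 0.51 and 0.65. The other 6 genes called there were Epx (0.95 ± 0.13), Ear1 (0.90 ± 0.10) and Ear6 (0.98 ± 0.13), which encode eosinophil granule proteins, the matrix gene Bgn (1.03 ± 0.12), the BMP antagonist gene Chrdl1 (1.37 ± 0.18) and the immunoglobulin segment Ighv1-49 (-4.21 ± 0.31). The 8 mast cell, basophil and eosinophil markers held 0.182 to 0.266% of counts in PBS mice and 0.337 to 0.468% in β-glucan mice after 5-FU, and 1 of the 8 was called higher. The 8 stromal and endothelial markers held 0.0114 to 0.0223% against 0.0296 to 0.0345% and the 10 T, NK and innate lymphoid markers 0.00477 to 0.00542% against 0.00628 to 0.00702%, with 0 markers called in either list. The 10 erythroid markers held 12.3 to 16.1% against 9.19 to 12.2%, and neutrophil markers overlapped at 14.2 to 19.2% and 15.2 to 17.6%. No defining marker of these lists was at 0 in all libraries of either group, and their part in the values of the 8 genes was not tested.

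The β-glucan difference was compared between settings by a contrast of 4 groups. For Tsc22d3 it was larger after 5-FU than at day 28 by 0.77 ± 0.13, and this difference was called, as were 0.106% of 16985 genes, 0.053% in each direction. The libraries are those of the contrasts by which the genes were chosen, so this is not independent support. The corresponding differences of Klf9 (0.78 ± 0.18), Per1 (0.87 ± 0.38), Txnip (0.72 ± 0.21) and Ddit4 (0.50 ± 0.38) were not called, nor were those of Nr3c1 (0.12 ± 0.13), Zbtb16 (0.12 ± 0.55) and Fkbp5 (-0.15 ± 0.23). Between day 28 and day 7, 0 of 8 were called (4.82% of all genes, 2.24% higher and 2.58% lower), with Klf9 at -0.65 ± 0.21 and Txnip at -0.60 ± 0.21. Between MPP and HSC at day 28, 0 of 8 were called (0.00599%), Tsc22d3 differing by -0.01 ± 0.12 and Txnip by 0.36 ± 0.21. The day 28 HSC libraries enter all 3 of these contrasts. The contrasts between sets of HSC also cross tables and days of sampling, so 5-FU, day and table cannot be told apart in them.

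Of the 8 genes, 4 were called lower in MPP than in HSC at day 28 in each treatment. In PBS mice all 8 fold changes were negative, with a median of -0.27 against -0.02 over all genes. Ddit4 was at 0.897, 0.432, 0.595 and 0.713 CPM in MPP, below all 4 HSC libraries given above (-1.06 ± 0.30). Per1 was at 2.69, 2.48, 2.81 and 2.37 CPM in MPP, and the lowest HSC library at 2.77 CPM reached into that range (-0.80 ± 0.20). Klf9 was at 5.52, 5.48, 5.79 and 5.12 CPM in MPP, below all HSC libraries (-0.33 ± 0.11), and so was Tsc22d3 (-0.31 ± 0.09). These 4 genes were called lower, as were 12.1% of the 16122 genes tested (9.58% were called higher and 21.7% in all), and 3 of the 8 were separated, as were 26.4% of all genes. Fkbp5 (-0.20 ± 0.16), Txnip (-0.23 ± 0.12) and Zbtb16 (-0.12 ± 0.26) overlapped between the cell types. HSC replicate 2 of PBS mice held the highest Tsc22d3 and the lowest Per1, Klf9, Txnip and Fkbp5 of its group, and 1 MPP library of PBS mice, replicate 1, carried an HSC tag in a label other than its title. Without the first, Tsc22d3 stood at -0.22 ± 0.06, Per1 at -0.97 ± 0.13, Klf9 at -0.38 ± 0.10 and Txnip at -0.32 ± 0.09, and 5 of 8 genes were called. Without the second, 2 were called, Ddit4 (-1.25) and Per1 (-0.82). Leaving out MPP replicate 4 left 0 called, and leaving out MPP replicate 2 or 3 left 1, Per1.

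In β-glucan mice the same direction held for 7 of the 8 genes, Txnip being the exception (0.14 ± 0.15), with overlap. Ddit4 was at 0.764, 0.564, 0.598 and 0.699 CPM in MPP (-1.14 ± 0.21) and Per1 at 3.2, 2.51, 3.2 and 2.8 CPM (-0.63 ± 0.15), each below all HSC libraries. Tsc22d3 (-0.31 ± 0.07) and Nr3c1 were separated in the same way. Klf9 stood at -0.16 ± 0.13 with overlap, Fkbp5 at -0.23 ± 0.12 and Zbtb16 at -0.20 ± 0.22. 4 genes were called lower (18% of all genes, with 17.7% higher and 35.6% in all) and 4 were separated (34.1%). The 5 MPP markers were all called higher in MPP in both treatments. Of 10 LT-HSC markers tested in PBS mice 5 were called lower and 1 higher. In β-glucan mice 6 of 11 were called lower and 2 higher. The summed share of the LT-HSC markers in β-glucan mice was higher in MPP, at 0.037 to 0.0445%, than in HSC, at 0.0327 to 0.0367%. In MPP of PBS mice 5 of 6 megakaryocyte and 5 of 10 erythroid markers were called lower. Of 8 stromal and endothelial markers 5 were called lower and 1 higher in MPP of PBS mice. Their summed share was 0.011 to 0.0131% in MPP against 0.0155 to 0.0228% in HSC. Other lists went the opposite way there, with 6 of 10 B cell and 5 of 8 dendritic cell markers called higher and 0 lower. In MPP of β-glucan mice 8 of 10 erythroid, 7 of 10 neutrophil and 6 of 7 megakaryocyte markers were called lower and 0 higher. Of 8 mast cell, basophil and eosinophil markers 5 were called lower and 2 higher in the same comparison. There, 7 of 8 dendritic cell and 4 of 10 B cell markers were called higher and 0 lower. The part of all these markers in the differences of the 8 genes was not tested.

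**Figure D3:**
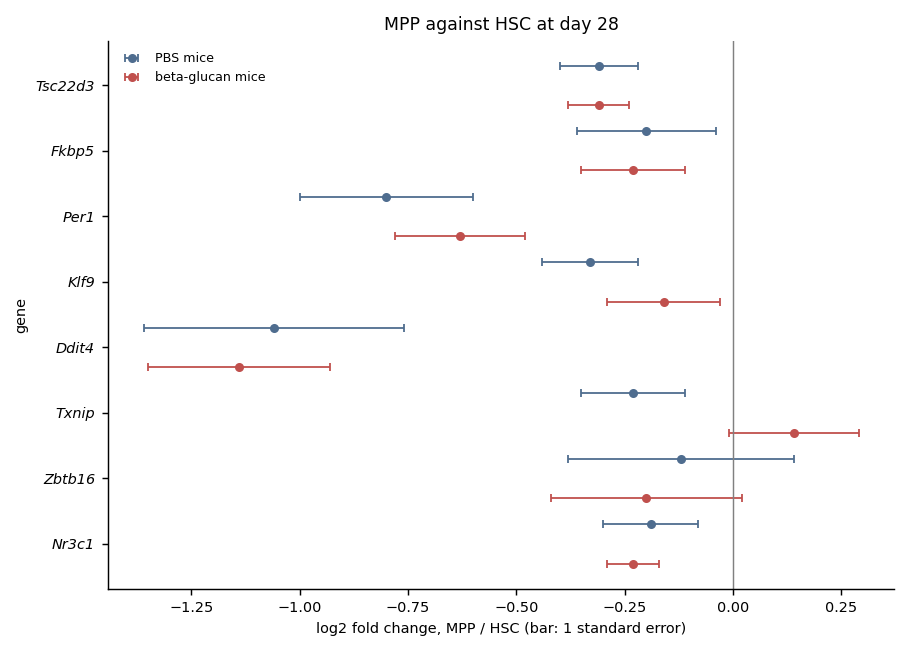
Log2 fold change of MPP against HSC at day 28 (horizontal axis, bars of 1 standard error) for each gene (vertical axis), in PBS mice (blue) and β-glucan mice (red). Ddit4 and Per1 lie farthest to the left, at -1.06 and -0.80 in PBS mice, and Txnip in β-glucan mice is the only value above 0.

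Other genes of the pathway were read from lists drawn up with earlier results of these data known, and the genes named from each are mostly those of smallest p. Among 34 other genes known to be induced by glucocorticoids, 32 were tested after 5-FU and 0 were called, with 16 higher and 16 lower and a median of 0.00. Over all genes in that comparison 0.0446% were called (7 of 15705), so a list of this size would be likely to hold 0, and 1184 had an unadjusted p under 0.05. The smallest p in the list belonged to Pdk4, a mitochondrial kinase that spares glucose (0.97 ± 0.32), followed by Sult1a1 (0.51 ± 0.17). The even split of this list stands beside the 8 of 8 above, and no test was made between them. Among day 28 HSC, 0 of 32 were called (median 0.04), against 0.0374% of all genes, with Rgs2, a brake on G protein signalling, at -0.29 ± 0.09. In that comparison DESeq2 also called 0 of these genes, as it did after 5-FU.

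At day 7 the same list split, with 3 of 32 genes called higher and 4 lower (median 0.03 against -0.01 over all genes), where 2.83% of all genes were called higher and 3.88% lower. With 1 library left out, 2 to 6 of the list were called. Anxa1, which encodes the anti-inflammatory annexin A1, rose from 2080 to 2510 CPM in PBS libraries to 3090 to 4850 CPM in β-glucan libraries (0.82 ± 0.13, adjusted p = 0.00368 by edgeR's quasi-likelihood test). Mt1, a metal-binding metallothionein, rose (0.63 ± 0.10), as did Il1r2, the decoy receptor of interleukin-1 (0.73 ± 0.14). The stress-response gene Sesn1 fell by 0.42 on the log2 scale, the interleukin-7 receptor gene Il7r, which was chosen after its values were seen, stood at 17.1 to 27.6 CPM in PBS and 8.71 to 15.4 CPM in β-glucan libraries (-0.95 ± 0.21), and Glul and Btg1 completed the genes called lower. Of 10 neutrophil markers 7 rose in the same libraries, their summed share going from 5.39 to 6.14% of counts up to 7.72 to 11.2%. Among 10 monocyte and macrophage markers 4 rose and 0 fell, the summed share going from 0.139 to 0.161% up to 0.212 to 0.285%. Of 10 B cell markers 9 fell, from 0.214 to 0.238% to 0.116 to 0.159%, and of 10 erythroid markers 8 fell, from 5.89 to 7.33% to 1.87 to 2.54%. Their part in the list was not tested.

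In MPP, 1 of 31 of these genes rose and 3 fell (median -0.03), against 2.72% and 1.91% of all genes, the falls being Il7r (-0.50 ± 0.07), the kinase gene Sgk1 (-0.31 ± 0.07) and Rgs2 (-0.20 ± 0.05). The 8 of 10 B cell markers that fell in these libraries stand beside the lymphoid gene Il7r, and their part in it was not tested.

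Steroid handling gave 1 call in any comparison with β-glucan, among 5 genes tested at day 7, where 6.72% of all genes were called. Hsd11b1 encodes the enzyme that regenerates active glucocorticoid from its inactive form inside cells. At day 7 it was at 63.8, 67.2, 80.6 and 49.9 CPM in PBS HSC and at 103, 162 and 126 CPM in β-glucan HSC, with no overlap. It rose by 0.99 ± 0.17 (adjusted p = 0.00457 by edgeR's quasi-likelihood test). The neutrophil markers and the monocyte and macrophage markers given above also rose in these libraries, and their part was not tested. At day 28 Hsd11b1 was at 83.6, 135, 87.7 and 89.6 CPM in PBS HSC and at 86.5, 84.5, 90.7 and 87.9 CPM in β-glucan HSC (-0.19 ± 0.14), with overlap. The effect at day 28 was lower than that at day 7 by more than the spread, the difference being -1.21 ± 0.23 (adjusted p = 0.00629 by edgeR's quasi-likelihood test). Day and table cannot be told apart in that difference. After 5-FU the groups overlapped at 120 to 148 CPM in PBS and 120 to 146 CPM in β-glucan mice (-0.06 ± 0.08). The other genes of this list, such as H6pd, which supplies the enzyme's cofactor, and Nr3c2, the mineralocorticoid receptor, were not called in these comparisons.

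Among 22 chaperones and co-regulators of the receptor, β-glucan gave 0 to 3 calls in a comparison. After 5-FU 0 of 22 were called and 19 were higher (median 0.07 against 0.00), and in HSC at day 28 0 of 22 were called (median 0.10 against -0.02). The share called over all genes was 0.0446% after 5-FU and 0.0374% in HSC at day 28. At day 7, 19 of 22 were lower (median -0.13 against -0.01). There 2 were called lower and 1 higher, against 3.88% and 2.83% of all genes. The co-repressor Nrip1 (-0.64 ± 0.13) and the acetyltransferase Crebbp (-0.47 ± 0.12) fell and the chaperone Hspa8 rose (0.27 ± 0.07). In MPP, Ptges3, the p23 co-chaperone of Hsp90 (0.24 ± 0.06), and Fkbp4, which competes with Fkbp5 for the receptor complex (0.23 ± 0.06), rose, 2 of 22 in all, against 4.63% of all genes called. MPP of PBS mice held more of the Hsp90 genes than HSC, Hsp90ab1 and Hsp90aa1 each rising by 0.34 (± 0.07 and ± 0.08) and the adaptor Stip1 by 0.32 ± 0.06, among 4 of 22 genes called higher and 2 lower. Over all genes 9.58% were called higher and 12.1% lower in that comparison.

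Of the clock genes, 2 of 15 were called at day 7, against 6.72% of all genes. Bhlhe40, a repressor of the clock, rose (0.63 ± 0.12) and Arntl, which encodes the activator BMAL1, fell (-0.64 ± 0.12). In MPP 2 of 14 were called, against 4.63% of all genes. Arntl fell again (-0.44 ± 0.06), its libraries going from 29.9 to 32.4 CPM to 21.7 to 23.7 CPM, and the repressor Cry2 rose (0.61 ± 0.09). In HSC 0 of 14 were called at day 28 (median -0.02, 0.0374% of all genes) and 0 of 14 after 5-FU (median 0.09, 0.0446% of all genes), where Nr1d1 stood at 0.64 ± 0.25. The labels give no hour of sampling, so its part in the levels of clock genes was not tested.

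Among genes on the Txnip side, thioredoxins, Mondo factors and FOXO genes, Foxo3 (-0.68 ± 0.13) and Sesn1 fell and Mlx, a Mondo partner, rose (0.47 ± 0.12) at day 7, 3 of 12 genes. Over all genes 6.72% were called there. Among day 28 HSC, where Txnip was lowest, 0 of 12 were called (median 0.07). In MPP 1 of 12 was called, Pik3ip1, an inhibitor of PI3 kinase, which rose from 6.55 to 9.21 CPM to 10.8 to 18.7 CPM (0.92 ± 0.18), and after 5-FU 0 of 12. The share over all genes was 4.63% in MPP, 0.0446% after 5-FU and 0.0374% in HSC at day 28. Among mTORC1 brakes and ATF4 stress genes, the setting of Ddit4, Rheb, the activator of mTORC1, rose in MPP (1.26 ± 0.22, 1 of 12), and 0 of 12 were called in each set of HSC. Between MPP and HSC of PBS mice 4 of 12 were called lower and 0 higher. The smallest p was that of the activator Rheb (-0.97 ± 0.14), followed by Sesn2 (-0.60 ± 0.10) and Trib3 (-0.95 ± 0.19). Over all genes 12.1% were called lower and 9.58% higher there, and Ddit4 was lower too.

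Gene family relatives of the 8 were tested too. After 5-FU 0 of 17 were called, against 0.0446% of all genes, and Arrdc4, a Txnip relative that Mondo factors also drive, stood at 0.50 ± 0.14. At day 7 Klf11 (-1.05 ± 0.21) and Arrdc3 (-0.41 ± 0.11) fell, and in MPP Fkbp8 (0.43 ± 0.09) and Fkbp4 rose. In MPP against HSC of PBS mice 6 of 18 relatives fell and 0 rose (median -0.32 against -0.02), where 12.1% of all genes were called lower and 9.58% higher, led by Tsc22d1 (-0.63 ± 0.10), Fkbp8 (-0.46 ± 0.08) and Tsc22d4 (-0.43 ± 0.09). Tsc22d1 and Tsc22d4 thus had the direction of Tsc22d3. Of the other glucocorticoid-induced genes in that comparison 11 of 31 fell and 3 rose (median -0.15), the strongest falls including the transglutaminase Tgm2 (-1.32 ± 0.12), Sult1a1 (-1.81 ± 0.19) and the cell cycle inhibitor Cdkn1c (-1.76 ± 0.28). In β-glucan mice 14 of 31 fell and 2 rose (median -0.24), against 18% and 17.7% of all genes.

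Inflammatory genes that glucocorticoids are known to repress showed no common fall. After 5-FU 0 of 14 were called (median -0.14 against 0.00), with the chemokine gene Cxcl2 at -1.36 ± 0.39, and in HSC at day 28 0 of 13 (median -0.14 against -0.02), with Cxcl2 at 1.35 ± 0.29. At day 7 1 of 14 was called, the chemokine gene Ccl3, which fell by 0.58 on the log2 scale. In MPP, Ccl5 (-0.58 ± 0.10) and Il1b (-0.39 ± 0.09) fell and Cxcl2 rose (1.33 ± 0.30), 3 of 13 genes. Over all genes 6.72% were called at day 7, 4.63% in MPP, 0.0374% in HSC at day 28 and 0.0446% after 5-FU.

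**Figure D4:**
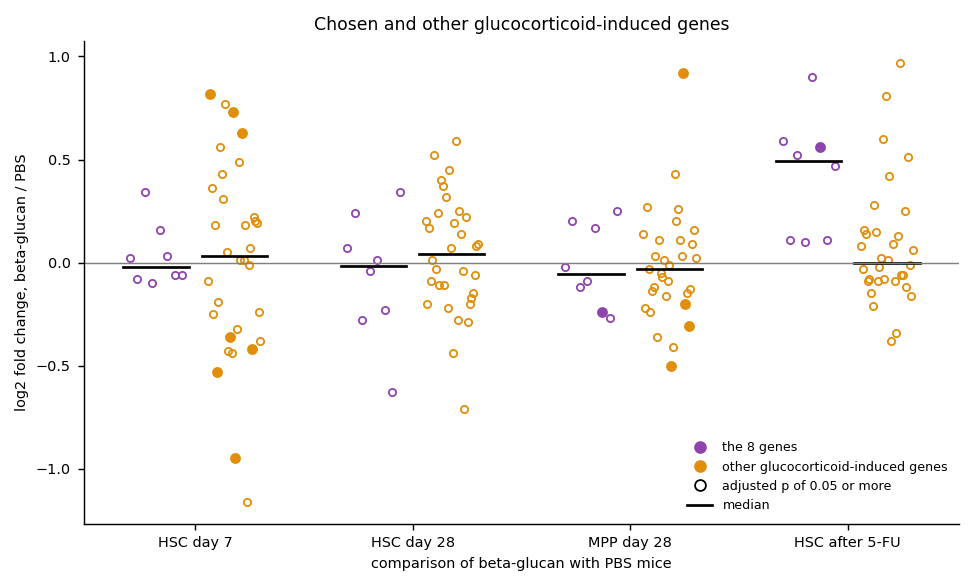
Log2 fold change of β-glucan against PBS mice (vertical axis) for the 8 chosen genes (purple) and the other glucocorticoid-induced genes (orange) in each comparison (horizontal axis), filled where called, with black lines at the medians. After 5-FU the 8 genes have a median of 0.49 and the other genes one of 0.00.

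Once group means were removed, pairs of the 8 genes had correlations from -0.38 to 0.55. Over the 31 libraries the deviations of Txnip and Zbtb16 had a Pearson r of 0.55, those of Fkbp5 and Per1 0.46 and those of Zbtb16 and Nr3c1 0.44, while Tsc22d3 and Fkbp5 stood at -0.38. Against summed marker shares, the largest in size were Tsc22d3 with dendritic cell markers (-0.68) and Zbtb16 with stromal and endothelial markers (-0.62). The part of these cells was not tested. Among 7303 genes of moderate level, the patterns most like Tsc22d3 were those of Cd14 (r = 0.86) and Cript (0.81), and those most like Txnip were CT010467.1 (0.81) and Dach1 (0.80). For Nr3c1 they were Hipk1 (0.81) and Ogfrl1 (0.79), for Fkbp5 Trim28 (0.82) and Trim35 (0.79), and for Zbtb16 Zfp608 (0.78) and Fyb (0.77). Per1 was most like Gspt1 (0.73) and Nfkb1 (0.71), Klf9 like Pole2 (0.67) and Nolc1 (0.66), and Ddit4 like Tor1b (0.66) and Togaram1 (0.64). The libraries share their preparation and differ in depth, each pair is the best of all genes searched, and these values are descriptions.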

How the data were processed

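RNA-seq was made from 31 libraries with the SMARTer Ultra kit, per the labels' protocols, a chemistry that does not mark strand. The authors deposited 3 tables of read counts per Ensembl gene. The submitters' processing notes name bcl2fastq 1.8.4, featureCounts and the mm10 build. Which aligner was used was not given in the sources. Tables were matched to day 7, day 28 and 5-FU by elimination from the number and cell type of their columns, with P and G in column names read as PBS and β-glucan.

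The members and gene lists were chosen with earlier results of these data known. Genes with low counts were removed with edgeR's filterByExpr (minimum count 10), and the rest were scaled by TMM. The main test was edgeR's quasi-likelihood test (edgeR 4.0.16, limma 3.58.1, R 4.3.3) within each comparison's groups, with Benjamini-Hochberg adjustment over all genes and a threshold of 0.05. Differences of β-glucan effects used a contrast of 4 groups. CPM used each table's TMM totals, and FPKM divided by exon length. Symbols came from GENCODE M21 for 45143 identifiers. All 8 members are named, with up to 4 genes of smallest p from each other list and the 2 most alike genes for each member among those of mean log2 CPM of at least 3. No 2 replicates agreed within sampling noise (chi-square per gene 6.75 to 50.3 over 45 pairs).

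The fit was tested on simulated counts in which only genes of at least 5 CPM were changed, so recovery at lower levels was not tested. At day 7 it recovered 84% of 2-fold and 39% of 1.5-fold changes, with 15 false calls among 138. After 5-FU it recovered 89% and 70%, with 5 false calls among 164. Recovery of 1.5-fold changes was lowest, at 15%, for the difference between day 28 and day 7. The alternatives were DESeq2 1.42.0, its size factors, no filter, a filter of 5 CPM, a replicate block and leaving out each library.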

Additional observations from a re-analysis of the deposited data

Results flagged for a closer look

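4 single libraries lay far from the others of their group, among 56 groups of 4 libraries examined over the 8 genes, and chance alone marks about 1 in 20 groups. Tsc22d3 stood at 352 CPM in β-glucan replicate 2 after 5-FU, Klf9 at 6.13 CPM in PBS HSC replicate 2 at day 28, and Zbtb16 at 2.24 CPM in β-glucan MPP replicate 4 and at 1.97 CPM in β-glucan replicate 1 after 5-FU.

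Some β-glucan effects differed between settings by edgeR's quasi-likelihood test of the difference itself, adjusted over all genes. The settings lie in different tables, so 5-FU, day and table cannot be told apart in these differences. Between 5-FU and day 28, Tsc22d3 differed by 0.77 ± 0.13 on the log2 scale, and the chemokine gene Cxcl2, which lay in the opposite direction in the 2 settings, by -2.73 ± 0.51. Between day 28 and day 7, Anxa1 differed by -1.05 ± 0.20, Hsd11b1 by -1.21 ± 0.23 and Bhlhe40 by -0.69 ± 0.16, all 3 having been higher with β-glucan at day 7. Ccl3 (0.78 ± 0.18), Foxo3 (0.77 ± 0.18) and Crebbp (0.63 ± 0.15) differed the other way, having been lower with β-glucan at day 7.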

How the results depend on the processing

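Over 72 pairs of a member and a comparison, 1087 alternative values of the log2 fold change had a largest shift of 0.37. A shift was counted only where it passed the SD of single libraries within groups, and 0 did. Leaving out 1 library can hardly move a group mean that far, so this 0 says little about how firm the values are. A reversal of sign was counted only for members called in the main test, and there were 0. Signs of members not called were not counted, so the direction of their small differences is not shown to hold. The counts of members called rest on adjusted p-values near the threshold. For HSC at day 28 the count went from 0 to 1 (Txnip) with no filter and with DESeq2, and in MPP from 1 to 2 (Tsc22d3 and Txnip) with no filter and with DESeq2. After 5-FU it went from 1 to 0 with DESeq2's size factors and to 2 (Tsc22d3 and Klf9) with DESeq2. MPP against HSC went from 4 to 2 in PBS and in β-glucan mice under the filter of 5 CPM, which removed Per1 and Ddit4. For the difference between day 28 and day 7 the count went from 0 to 1 with no filter (Txnip) and with DESeq2 (Klf9). For that between 5-FU and day 28 it went from 1 to 0 with DESeq2's size factors and to 2 with DESeq2. Other causes were not tested.

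With 1 library left out at a time, the members called numbered 0 to 1 in HSC at day 28 (1 without β-glucan replicate 3), 0 to 1 in MPP (0 without PBS replicate 1, 2 or 4) and 0 to 1 after 5-FU. They numbered 0 to 5 for MPP against HSC in PBS mice, with 0 without MPP replicate 4, 1 without MPP replicate 2 or 3, 2 without MPP replicate 1 or HSC replicate 1 or 4, 3 without HSC replicate 3 and 5 without HSC replicate 2. For day 28 against day 7 they numbered 0 to 1 (1 without β-glucan replicate 3 of day 28) and for 5-FU against day 28 0 to 2. The other glucocorticoid-induced genes called numbered 2 to 6 at day 7, against 7 with all libraries, 1 to 5 in MPP, against 4, and 9 to 16 for MPP against HSC in PBS mice, against 14.

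The replicate numbers were not taken as pairs in the main test, since no comparison had every same-number correlation over 0.1 (range -0.08 to 0.18). Only in MPP against HSC of β-glucan mice did every sample correlate best with its own number. There the same-number correlations were 0.09, 0.15, 0.18 and 0.17, and the best with another number were 0.06, 0.05, 0.08 and -0.03. In that comparison 5678 genes were called in the main test and 6706 with the replicate block. Whether its HSC and MPP libraries came from the same mice was not tested. With the replicate block the members called were 2 in MPP, 0 after 5-FU, 0 in the other sets of HSC, 4 in MPP against HSC of either treatment, 1 for day 28 against day 7 (Txnip) and 1 for 5-FU against day 28.

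Counts over all genes, examined under alternatives chosen after seeing the data, moved more. At day 7, 1102 genes were called, 1711 with DESeq2, 645 with the block and 500 to 1252 with 1 library left out. In HSC at day 28, 6 were called, 182 with no filter, 589 with DESeq2, 14 with the block and 1 to 51 with 1 library left out. In MPP, 733 were called, 1181 with no filter, 1301 with DESeq2 and 164 to 1010 with 1 library left out. After 5-FU, 7 were called, 110 with no filter, 12 with the filter of 5 CPM, 147 with DESeq2, 16 with the block and 2 to 61 with 1 library left out. In MPP against HSC of PBS mice, 3493 were called and 2004 to 5050 with 1 library left out. For the differences of effects the counts were 1, and 2 with no filter or DESeq2, between MPP and HSC. They were 866, 1432 with DESeq2 and 445 to 1051 with 1 library left out between day 28 and day 7. They were 18, 59 with no filter, 151 with DESeq2, 7 with the block and 6 to 49 with 1 library left out between 5-FU and day 28.

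Of 1775 alternative values for 136 pairs of a called list gene and a comparison, 1493 kept the call, 282 lost it and 0 reversed. Anxa1, Mt1, Hsd11b1 and Bhlhe40 at day 7 kept it in 12 of 12, and Cxcl2 for 5-FU against day 28 in 7 of 20. Depth limits Ddit4, Zbtb16 and Per1 most.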
